A study of Capra hircus with 4 samples.

Results

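C1Q macrophages of the goat pancreas were 543 of the 17982 barcodes that held at least 3000 unique molecular identifiers (UMIs, each standing for 1 captured transcript) and 500 genes. A barcode, the tag of 1 droplet, was chosen by its measured UMI counts: it was a member when C1QA, C1QB and C1QC together gave at least 5 UMIs and at least 2 of the 6 pan-leukocyte genes PTPRC, CORO1A, LAPTM5, CD53, TYROBP and FCER1G were detected. INS and PPY had to stay under 3% of its UMIs each, PRSS2, CLPS and SYCN together under 5%, and PDGFRA at 0. The pancreas came from 4 female Liuyang black goats born as twins, 2 of them 6 months old and ruminating (DY) and 2 of them 10 days old and not yet ruminating (XY). No other treatment or genotype was given for either age, and all cell suspensions were digested with enzymes and depleted of red blood cells and dead cells before 10x Genomics 3' sequencing. The submitters' cell type labels name immune cells and no macrophage class. Library numbers 1 to 4 on the barcodes are tied to no animal or age by any label, so values are given by library, the 2 ages are not compared, and no difference has a replicate check or a p-value.

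C1q is the recognition unit of the classical complement pathway, built from A, B and C chains, and it binds antibody on a target as well as dying cells and synapses. Tissue macrophages are its main source, whereas the proteases C1r and C1s, which C1q activates, are made by other cell types. Resident macrophages of the pancreas lie in islets and between acini, where they clear dead cells, take up debris and present antigen. In mouse and human tissues they are often divided by LYVE1, a hyaluronan receptor, and by the genes of major histocompatibility complex (MHC) class II.

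Members numbered 126, 59, 84 and 274 in libraries 1 to 4, or 3.93% (95% exact binomial interval 3.29 to 4.67), 0.892% (0.679 to 1.15), 1.74% (1.39 to 2.15) and 8.23% (7.32 to 9.22) of the deep barcodes. These intervals, and all others here, cover counting error only. Library 4 held more members than the other 3 libraries together, so values are not pooled. Median depth of members was 5201, 4069, 5727 and 6943 UMIs, against 5817, 5567, 7272 and 7807 UMIs in all other deep barcodes. A median member carried 91.5, 72, 67.5 and 83.5 C1Q UMIs, with extremes of 5 and 396 over the 4 libraries. The threshold cut through a thin part of the distribution: among deep barcodes with the leukocyte genes and within the other limits, 51 had 1 to 4 C1Q UMIs, 17 had 5 to 9 and 505 had 20 or more. CD209 or FOLR2 was detected in 12 of the 51 just outside, in 7 of the 17 just inside and in 392 of the 505. At least 4 of the 6 leukocyte genes were found in 94.1% of members. None of the 543 shared a barcode sequence with a member of another library, and 1 shared it with another deep barcode.

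The 3 C1Q genes, which chose the members and are described only, were abundant in members of every library. UMI counts scaled to a fixed total per class and library (CPM, with a base of 1e+06) in members were 6384, 7274, 4612 and 4775 for C1QA, 5459, 5040.1, 3568 and 3674 for C1QB and 6629, 6230.5, 4942 and 4901 for C1QC in libraries 1 to 4. All other deep barcodes had 15.8, 2.87, 4.69 and 24.9 CPM of C1QA. Of the C1Q UMIs of members, C1QA gave 34.6% to 39.2%, C1QB 27.2% to 29.6% and C1QC 33.6% to 37.7%. Between cells of 1 library, C1QA went with C1QC at a Spearman rho of 0.81 (median over libraries) and with C1QB at 0.76, each cell being thinned to 3000 UMIs. In the RefSeq order of goat genes, EPHA8, C1QA, C1QC, the transcribed pseudogene LOC102187088, C1QB and EPHB2 follow each other. The pseudogene had 50.04, 92.9, 33.8 and 53.5 CPM in members, against 0.211, 0.0481, 0.0614 and 0.447 CPM in other barcodes, and how reads were shared between it and the C1Q genes was not tested.

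The markers that the rule did not use were high in members. CD68, a lysosomal membrane protein of phagocytes, had 641, 415, 484 and 322 CPM in members and 5.61, 4.90, 2.83 and 17.8 CPM in other barcodes. CSF1R, the receptor for the growth factor that macrophages need to live, had 1093, 1215, 883 and 971 CPM in members and 8.14, 1.15, 1.54 and 52.4 CPM in others. CD14, a co-receptor for bacterial lipopolysaccharide, had 681, 794, 488 and 660.1 CPM in members and 23.1, 4.05, 3.26 and 146 CPM in others. The lectin CD209 had 1355, 454, 462 and 767 CPM in members, with 95% Poisson limits of 1271 to 1443 CPM in library 1 and 378 to 540.1 CPM in library 2, and 8.49, 0.785, 0.881 and 7.82 CPM in others. FOLR2, the folate receptor of tissue macrophages, had 794, 683, 409 and 269.9 CPM in members and 2.11, 0.737, 0.43 and 1.53 CPM in others. For these 5 genes every library's members stood above every library's other barcodes, and library 4 had the least FOLR2.

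CSF1R UMIs were seen in 92.1%, 86.4%, 86.9% and 87.2% of members thinned to 3000 UMIs, and CD209 UMIs in 77.8%, 47.5%, 50.0% and 48.9%. Endocrine barcodes, with at least 10% of UMIs from INS or PPY and with none of the 6 leukocyte genes, should lack both genes. They had median depths of 16341, 6788, 8915 and 16184 UMIs before thinning. At 3000 UMIs the shares in them were at most 0.347% for CSF1R and 0.694% for CD209. Leaving out barcodes with leukocyte genes can also remove those with stray macrophage RNA, so these shares do not measure background in all barcodes. Of other leukocytes, 7 T and NK cell genes summed to 154, 57.2, 63.8 and 89.03 CPM in members, against 108, 16.8, 35.1 and 146 CPM in other barcodes. Among them NKG7, a cytotoxic granule gene, was seen in 18.3%, 5.08%, 14.3% and 13.1% of members. The 6 dendritic cell genes summed to 12.5, 10.7, 13.1 and 30.8 CPM in members, against 12.1, 4.24, 2.93 and 9.73 CPM in others, and 4 mast cell genes to 31.97, 17.9, 30.04 and 18.5 CPM in members, against 1.97, 3.92, 2.05 and 2.01 CPM in others. These sums were thus above those of other barcodes in every library, except T and NK genes in library 4. CD79B was at 0 in all 4 libraries, MS4A1 in libraries 1, 2 and 3, CCR7 in libraries 1, 2 and 4, and CPA3 and MS4A2 in all 4. KIT was at 0 as well in libraries 1 and 2, so the mast cell sum there came from HPGDS alone. In libraries 1 and 4 HPGDS was also higher in members than in the granulocyte class described below. At least 2 of 8 matched granulocyte and inflammatory monocyte markers, CXCL8 among them, were seen in 3.17%, 6.78%, 14.3% and 32.1% of members. Stromal genes summed to 250.2, 3492, 1014 and 1011 CPM in members, against 2779.7, 20402, 9573 and 3864 CPM in barcodes of 10 to 100 UMIs, which hold mostly free RNA. Acinar genes summed to 2281, 3946, 2817 and 720.3 CPM, against 135349, 69341, 68157 and 12375 CPM in the free RNA, so the part of free RNA and of droplets with 2 cells in low signals of members was not tested.

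**Figure D1:**
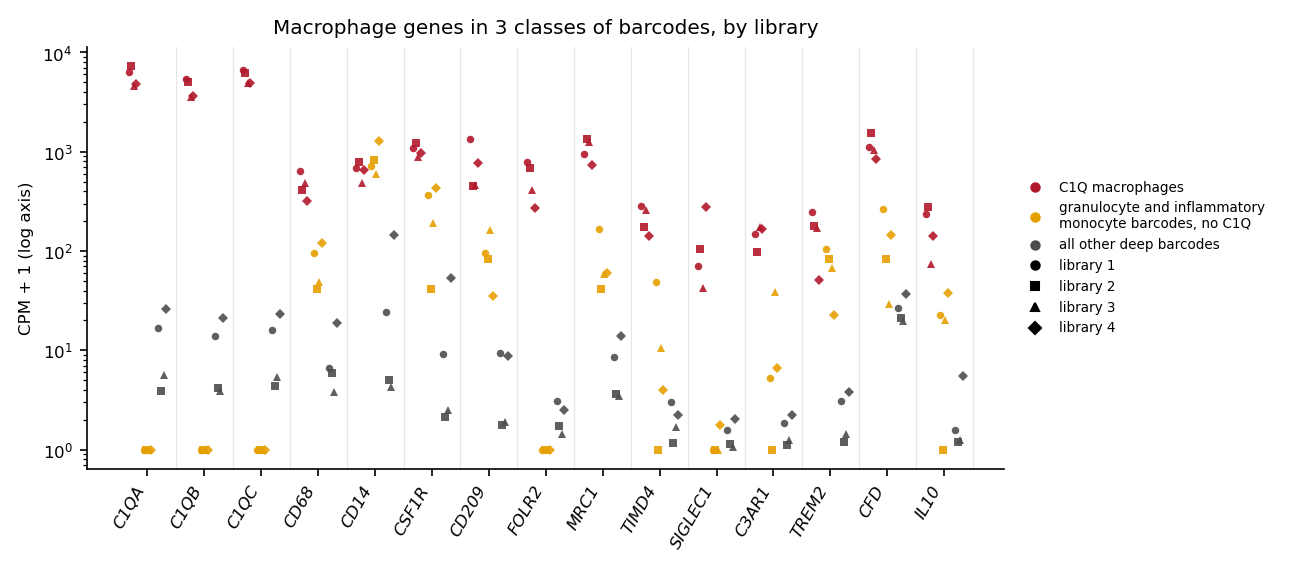
CPM + 1 on a log axis for 15 genes in C1Q macrophages (red), C1Q-negative granulocyte and inflammatory monocyte barcodes (orange) and all other deep barcodes (grey), with 1 point per library and marker shapes for libraries 1 to 4. CSF1R, CD68, CD209, FOLR2 and MRC1 lie above the other barcodes in every library, while CD14 reaches 681, 794, 488 and 660.1 CPM in macrophages and 714, 816, 601 and 1293 CPM in the granulocyte class.

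Members were then set against the other 17439 deep barcodes within each library over 17 lists of genes. A gene is called higher or lower here when its CPM, after adding 1, differed at least 2-fold the same way in all 4 libraries and the class with more of it held 20 counts or more in every library, and log2 values below are medians over libraries on that scale. Over all genes 710 of 13609 (5.22%) were higher and 1779 (13.1%) lower. Of 340 list genes with enough counts, 135 were higher and 20 lower, with a median log2 ratio of 1.95, against 0.14 over all genes. Since many lists were drawn up for macrophages, that excess describes the lists as much as the cells. The 20 counts are harder to reach in the class with fewer UMIs, here the members, which limits the genes that can be called higher in it. A lower call asks for no counts in members. In library 2, where 1 count in members is 3.57 CPM, a gene low in other barcodes can pass the fold with 0 counts in members. Lower calls of low genes are thus no measure of depletion. The same limits weigh on the smaller class in the comparisons below. With no minimum of counts, 200 list genes were higher in members and 20 lower.

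Complement genes were split by role. Of 17 with enough counts, 6 were higher and 5 lower in members (median 0.65). Higher were the receptors and the alternative pathway: C3AR1, the receptor for the C3a fragment, had 147, 96.5, 175 and 166 CPM in members and 0.842, 0.112, 0.266 and 1.24 CPM in others. C5AR1, the C5a receptor, had 499, 250.2, 513 and 487 CPM in members and 8.28, 0.448, 1.66 and 106 CPM in others. CFD, the protease factor D that starts the alternative pathway, had 1125, 1559, 1046 and 841 CPM in members and 25.9, 20.1, 18.98 and 35.9 CPM in others. CFP (properdin, which stabilises the C3 convertase), ITGAM (a chain of complement receptor 3) and VSIG4 (a receptor for C3b) were also higher. CFB, the substrate of factor D, was called lower, at 1.39, 0, 0 and 11.8 CPM in members and 4.95, 2.67, 18.5 and 88.9 CPM in others. Members held 1, 0, 0 and 25 counts of it, so in libraries 1 and 2 its ratio depends on the added 1 CPM.

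Lower in members were the proteases that C1q works with. C1R had 13.9, 46.5, 7.51 and 20.8 CPM in members and 209, 118, 75.1 and 356 CPM in others, a log2 ratio of -3.49. C1S had 4.17, 53.6, 1.88 and 20.8 CPM in members and 257, 157, 122 and 428 CPM in others, a log2 ratio of -4.86. SERPING1, the inhibitor of both, had 20.9, 53.6, 11.3 and 32.2 CPM in members and 433, 323, 217 and 526 CPM in others. CFI, the protease that inactivates C3b, was lower as well. In library 2, where stromal RNA was also highest in members, C1R and C1S reached their highest levels in members, and the part of stromal RNA was not tested. C3 itself was not called, at 1344, 1065, 422 and 1285 CPM in members and 777, 413, 297 and 1783 CPM in others, and library 4 differed in direction from the rest.

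Receptors for debris and dying cells were mostly higher in members. Of 20 measured scavenger and clearance genes 12 were higher and 2 lower (median 3.69). MRC1, the mannose receptor, had 956, 1358, 1241 and 729.8 CPM in members and 7.62, 2.64, 2.48 and 12.9 CPM in others. TIMD4, which binds phosphatidylserine on dying cells, had 282, 175, 255 and 140.2 CPM in members and 2.000, 0.176, 0.676 and 1.21 CPM in others. SIGLEC1, a sialic acid receptor, had 69.5, 104, 41.3 and 278 CPM in members and 0.597, 0.144, 0.0614 and 1.05 CPM in others, and it was highest in library 4. MSR1 (7.09), GPR34 (6.27), CLEC7A (5.63), CD36 (3.68), P2RY12, COLEC12 and LYVE1 were also higher. Of 3 soluble bridges to phosphatidylserine in the list, GAS6 and MFGE8 were lower and PROS1 was not called, at 5.56, 89.4, 28.2 and 8.998 CPM in members and 138, 119, 109 and 193 CPM in others. GAS6 had 6.95, 25.02, 0 and 5.68 CPM in members and 129.6, 70.7, 46.5 and 80.8 CPM in others, and MFGE8 16.7, 0, 9.39 and 19.4 CPM in members and 60.01, 24.9, 22.4 and 56.3 CPM in others. MERTK, a receptor for GAS6, had 58.4, 46.5, 56.3 and 44.5 CPM in members and 1.61, 4.16, 3.30 and 2.87 CPM in others, past the fold in each library but short of 20 counts in library 2.

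Of 35 genes in the lysosome list 21 were higher and 0 lower (median 2.47), counting TMSB4X, an actin-binding peptide of the cytosol that the list also holds. Cathepsin S (CTSS), which trims the class II chaperone, had 2509, 1777, 2417 and 2212 CPM in members and 47.4, 12.2, 13.9 and 245 CPM in others. Cathepsin B (CTSB) had 1372, 1194, 1659.9 and 808 CPM in members and 70.5, 44.8, 58.1 and 117 CPM in others. Of 11 iron and haem genes 1 was lower (CP, ceruloplasmin) and 2 were higher: the ferritin heavy chain FTH1, at 25741, 22416, 15849.9 and 16244 CPM in members and 2220.3, 1684, 1618 and 2946 CPM in others, and the iron exporter SLC40A1, at 453, 386, 309.8 and 406 CPM in members and 53.2, 39.5, 32.5 and 68.99 CPM in others. HMOX1, the haem oxygenase, was nearly unseen in members at 1.39, 0, 13.1 and 5.68 CPM. Lipid handling was mixed, with 7 of 24 higher and 1 lower, and APOE, abundant in many macrophages of mouse and human, had 0, 132, 16.9 and 4.74 CPM in members and 35.4, 251, 137 and 37.6 CPM in others.

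Antigen presentation was higher for 10 of 14 genes and lower for 0 (median 3.06). CD74, the invariant chain that escorts class II molecules, had 11487, 6516, 3213 and 10852 CPM in members and 267, 50.6, 52.2 and 539.7 CPM in others, and library 3 stood lowest among members. LOC102189356, listed in RefSeq with the synonym DRA (the alpha chain of a class II molecule), had 8888, 5076, 1493 and 6714 CPM in members and 205, 35.2, 18.9 and 308 CPM in others. CD86, CD40 and CD83, which costimulate or mark activation, TAP1, PSMB8, PSMB9, PSMB10 and IFI30 were also higher. CD1E, which edits lipid antigens and was not in a list, had 199, 111, 133 and 141 CPM in members and 1.51, 0.0641, 0.532 and 3.22 CPM in others.

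Innate receptors, regulators and signals were higher in part. Of 17 innate and Fc receptor genes 10 were higher and 0 lower (median 4.37), among them TREM2, a lipid receptor, at 247, 179, 169 and 50.2 CPM in members and 2.11, 0.192, 0.451 and 2.81 CPM in others. Of 29 macrophage transcription factors 14 were higher and 0 lower (median 2.45), with SPI1 (PU.1, the myeloid master regulator) at 279, 282, 308 and 339.5 CPM in members and 8.70, 1.86, 1.97 and 49.2 CPM in others. Of 23 chemokine and inflammatory genes 12 were higher and 1 lower (median 2.69). CXCL8, which draws neutrophils, had 2066, 1598, 745 and 1697 CPM in members and 35.8, 2.08, 4.18 and 353 CPM in others. IL10, an anti-inflammatory cytokine, had 238, 279, 73.2 and 140.2 CPM in members and 0.597, 0.192, 0.246 and 4.56 CPM in others, and CX3CR1, the fractalkine receptor, 129, 92.9, 197 and 217 CPM in members and 0.912, 0.0801, 0.389 and 9.32 CPM in others. Interferon response genes were higher for 9 of 21, and immediate early genes, which digestion is known to raise, for 11 of 25; FOS stood at 6974, 4289, 1865 and 4829.8 CPM in members and 1631, 839, 478 and 3199 CPM in others and was not called.

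The remaining lists were mixed. Of 16 tissue macrophage core genes 10 were higher and 2 lower (median 4.44), with DAB2, an endocytic adaptor, at 574, 937, 937 and 243 CPM in members and 65.7, 63.6, 62.4 and 99.9 CPM in others; HPGD and SLC7A8 were lower. Of 25 growth factor and receptor genes 6 were higher and 2 lower, and of 14 amino acid and nucleoside genes 2 were higher (SAT1 and SLC7A7) and 2 lower (SLC7A2 and SLC7A5). Of 15 matrix and protease genes 4 were higher (PLAU, PLAUR, F13A1 and TGFBI) and 4 lower (MMP2, TIMP3, FN1 and SPARC). VEGFA, the vascular growth factor, was lower at 19.5, 28.6, 9.39 and 18.9 CPM in members and 67.2, 66.4, 58.5 and 85.6 CPM in others, and WNT5A was lower too. Of 14 glycolysis and oxygen response genes 2 were higher, HIF1A and HK1. Of 24 cell cycle genes 0 were called in either direction (median 1.06). In libraries 1 and 2 members held 3 and 4 counts of MKI67 and of TOP2A. Such genes could not reach the 20 counts of a higher call, so the lack of calls does not show equal levels. Leaving the lists aside, VNN1, RGS1, CD1E and EBI3 were among the 15 named genes whose lowest library ratio was highest, beside FOLR2, CD209, C3AR1, TIMD4, MRC1, GPR34, SIGLEC1, CLEC7A, IL10, VSIG4 and CFD.

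**Figure D2:**
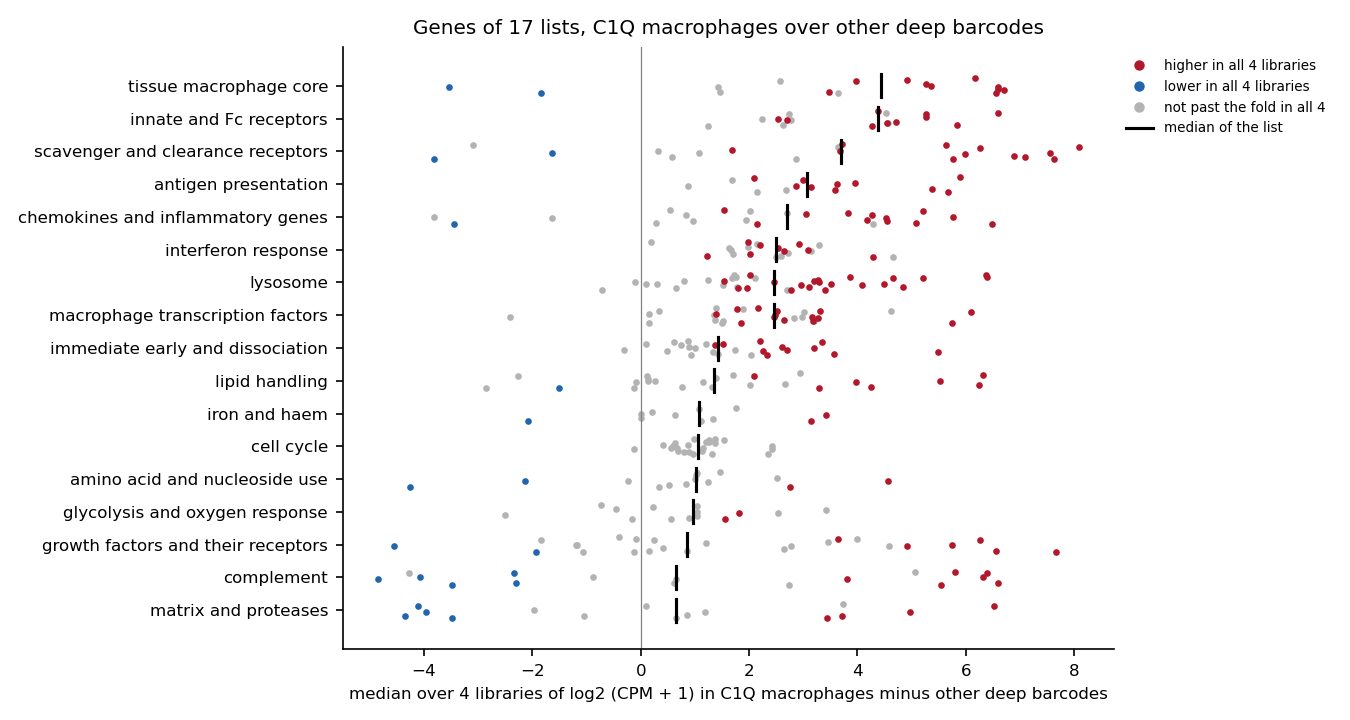
Each point is 1 gene of 17 lists, placed at its median over 4 libraries of the log2 (CPM + 1) difference between C1Q macrophages and other deep barcodes; red and blue mark genes higher or lower in all 4 libraries, grey the others, and black bars list medians. Tissue macrophage genes and innate receptors lie furthest right (medians 4.44 and 4.37), and complement and matrix genes spread to both sides (0.65 each).

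C1Q macrophages were also set against the nearest myeloid class. That class held barcodes without C1Q UMIs and with at least 2 granulocyte or inflammatory monocyte markers, 28, 3, 18 and 332 in libraries 1 to 4, so only libraries 1 and 4 had 20 cells on both sides. A call here means the fold in both of them; 408 of 4787 genes (8.52%) were higher in C1Q macrophages and 89 (1.86%) lower, and of 270 list genes 80 were higher and 21 lower. The markers that chose the granulocyte class, such as S100A8 and CXCL8, are left out of these counts. With those markers included, chemokine and inflammatory genes summed to 8739 and 7961 CPM in C1Q macrophages of libraries 1 and 4. The granulocyte class had 14891 and 21569 CPM. Of 16 such genes other than those markers, 5 were higher in C1Q macrophages and 1 lower. In library 1 the class also held lymphatic vessel RNA, with 1338 CPM of CCL21 and 342 CPM of LYVE1. Few genes of 3 lists that were mostly or partly higher against all other barcodes were called here: 2 of 13 for antigen presentation (CD74 and CD40 higher, median -0.19), 2 higher and 2 lower of 18 innate and Fc receptors (median -0.09), and 1 of 16 interferon genes (IFI6 higher, median 0.21).

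Of 19 clearance receptors 13 were higher in C1Q macrophages than in this class and 0 lower. FOLR2 had 794 and 269.9 CPM in C1Q macrophages of libraries 1 and 4, against 0 and 0 CPM in the granulocyte class. SIGLEC1 had 69.5 and 278 CPM, against 0 and 0.758 CPM, and CD36 61.2 and 103 CPM, against 0 and 0.758 CPM in the granulocyte class. Lipid genes were higher for 11 of 19, among them the phospholipid transfer protein PLTP, at 1166 and 447 CPM in C1Q macrophages and 21.7 and 29.95 CPM in the granulocyte class, and the lipase LPL (4.86). SEPP1, the selenium carrier, had 329 and 287 CPM, against 0 and 8.72 CPM, and cathepsin K (CTSK) 463 and 135 CPM, against 0 and 10.2 CPM. Growth factors diverged: PDGFB (5.01), PDGFC (4.53) and IGF1 (3.19) were higher, while AREG (-4.90), HBEGF (-1.98) and OSM (-2.73) were lower.

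Glycolysis and matrix genes included several that were lower in C1Q macrophages than in the granulocyte class. Of 8 glycolysis and oxygen response genes 5 were lower and 0 higher: PKM had 215 and 377 CPM in C1Q macrophages and 576 and 1009 CPM in the granulocyte class, and HIF1A, ALDOA, PGK1 and NDRG1 were the other 4. Of 13 matrix and protease genes 4 were lower and 2 higher. THBS1, a matrix glycoprotein, had 26.4 and 135 CPM, against 1572 and 4239 CPM, and the proteoglycan VCAN 55.6 and 437 CPM, against 2338 and 3991 CPM. Of 32 lysosome genes 9 were higher and 0 lower (median 0.61). CD14, SPI1, C5AR1, CTSS, FTH1, CFP and ITGAM, all higher in members than in other barcodes, were not called against this class. Of all genes outside the lists, the amine oxidase AOC1 (8.27), RAMP1 (7.52), a partner of the calcitonin-like receptor, the lectin CLEC4G (6.06) and SUCNR1 (5.90), the succinate receptor, had ratios among the 15 highest. The granulocyte class of library 1 had 0 counts of these 4 genes, of PDGFB, PDGFC and LPL, so their log2 ratios depend on the added 1 CPM.

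C1Q macrophages differed among themselves along LYVE1. At 3000 UMIs a cell, LYVE1 was detected in 44.4%, 35.6%, 47.6% and 30.3% of members (56 of 126, 21 of 59, 40 of 84 and 83 of 274). The share was at most 0.521% in endocrine barcodes, which were taken without leukocyte genes. This division was chosen after the correlations between cells had been seen, so its values are a description. In all 4 libraries LYVE1 ran against CD74, with Spearman rho of -0.59, -0.44, -0.68 and -0.67, and against LOC102189356, the DRA gene, with -0.62, -0.48, -0.68 and -0.64. It ran with CD209 (0.76, 0.39, 0.63 and 0.81) and with MRC1 (0.59, 0.54, 0.73 and 0.80), but not in a common direction with C1QA (0.07, -0.38, -0.14 and 0.17). These cells share library and free RNA, and thinned counts add to a fixed total, so abundant genes weigh on one another.

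**Figure D3:**
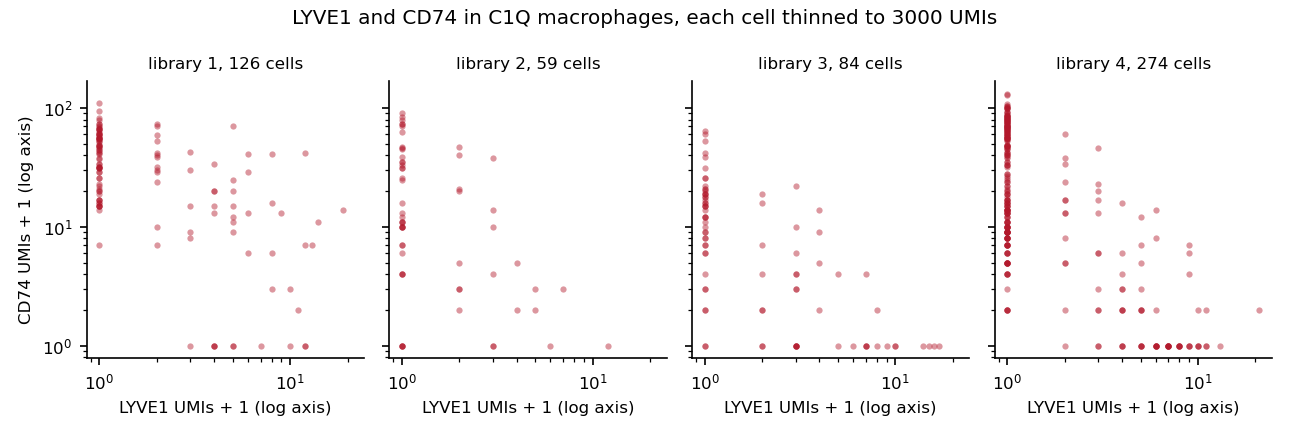
Each point is 1 C1Q macrophage thinned to 3000 UMIs, with LYVE1 UMIs + 1 across and CD74 UMIs + 1 upward on log axes, 1 panel per library. Cells with many LYVE1 UMIs sit low for CD74, and medians of CD74 are 12.5, 2, 0.5 and 1 UMIs with LYVE1, against 43, 13.5, 14 and 27 UMIs without it.

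CD74 was at 6760.3, 2915, 1155 and 2121 CPM in members with LYVE1, against 14463, 8748, 5401 and 13525 CPM in members without it, lower with LYVE1 in each library, although single cells of the 2 sides overlapped. LOC102189356 had 3864, 2065, 455 and 1043 CPM with LYVE1, against 12050.3, 6941, 2596 and 8449.8 CPM without. By the same fold rule in all 4 libraries, 34 of 1340 genes (2.54%) were higher with LYVE1 and 59 (4.4%) lower, and of 139 list genes 12 were higher and 10 lower. MRC1 had 1651, 2261, 2041 and 2364 CPM with LYVE1, against 519, 799, 391 and 229 CPM without. F13A1, the transglutaminase of clotting factor XIII, had 2565, 813, 1844 and 4329.8 CPM, against 401, 197, 461 and 611 CPM, and the growth factor IGF1 248, 439, 736 and 893 CPM, against 40.8, 92.6, 38.7 and 21.03 CPM. The transcription factor MAF (2.64), the endocytic adaptor DAB2 (2.46), the proteases LGMN (2.45) and CTSK (2.24), the antioxidant enzyme GPX3 (4.48) and the peptidase PEPD (2.98) were higher too.

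Lower with LYVE1, beside CD74, were IFI30 (-2.03), a lysosomal reductase of antigen processing, CXCL16 (-2.06), the prostaglandin synthase PTGS2 (-4.05), PLD4 (-2.32) and ISG15 (-1.66). FOLR2 was not called, at 1097, 719, 506 and 602 CPM with LYVE1 and 603, 660.0, 306 and 168 CPM without, nor were CSF1R and TIMD4. C1QA, which was left out of the calls, had 6908, 5251, 4099 and 5952 CPM with LYVE1 and 6055, 8528, 5156 and 4415 CPM without. LYVE1 also marks lymphatic endothelium. At 3000 UMIs the lymphatic gene CCL21 gave 2, 2, 65 and 0 UMIs over all members of libraries 1 to 4, and the 65 came from 1 cell of library 3; MMRN1 gave 1, 0, 6 and 0. Median depth was 4822, 4031, 6318 and 5729 UMIs with LYVE1, against 5813, 4278, 5134 and 8186 UMIs without, and its part was not tested beyond the thinning.

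**Figure D4:**
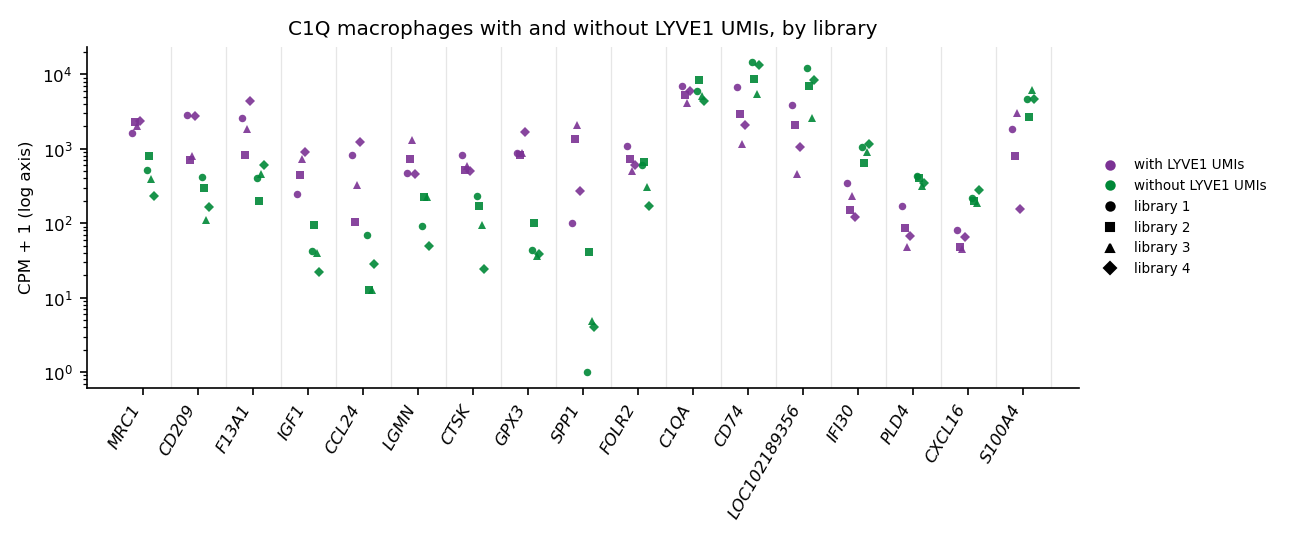
CPM + 1 on a log axis for 17 genes in C1Q macrophages with LYVE1 UMIs (purple) and without (green), 1 point per library. From MRC1 to SPP1 the purple points lie above the green of the same library. FOLR2 lies above as well, though it was not called, and C1QA changes direction between libraries. CD74, LOC102189356, IFI30, PLD4, CXCL16 and S100A4 lie lower.

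S100A4, a calcium-binding protein of motile cells, ran against FOLR2. S100A4 correlated with FOLR2 at rho of -0.54, -0.63, -0.58 and -0.53, and in mixed directions with CD74 (-0.01, 0.17, 0.27 and -0.15). It also ran against MRC1 (-0.41, -0.55, -0.54 and -0.51), CD209 (-0.33, -0.18, -0.38 and -0.55) and LYVE1 (-0.25, -0.21, -0.35 and -0.45), so this division and the one by LYVE1 are not separate. Members with a CD209 or FOLR2 UMI at 3000 UMIs were 85.7%, 78.0%, 72.6% and 56.6%, or 108, 46, 61 and 155 cells, against 18, 13, 23 and 119 without, so that libraries 3 and 4 alone had 20 cells on both sides. S100A4 had 2050.1, 753, 2143 and 703 CPM in libraries 1 to 4 in members with CD209 or FOLR2, against 12861, 6590.3, 12429 and 6935 CPM in members without. SRGN, a granule proteoglycan, had 1990.3, 1037, 776 and 1551 CPM with either receptor, against 7372, 4693, 3357 and 4566 CPM without. Both genes were lower on the receptor-bearing side in all 4 libraries. They were also among the genes that ran most against FOLR2 in these same cells, so these values are a description and no separate support.

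In libraries 3 and 4, 196 of 3541 genes (5.54%) were higher with CD209 or FOLR2 and 74 (2.09%) lower, and of 232 list genes 40 were higher and 11 lower. Clearance receptors were higher for 9 of 16, among them MRC1 (2.72), SIGLEC1 (6.40), LYVE1 (4.91), GPR34 (2.87) and TIMD4. IGF1 had 509 and 417 CPM with either receptor in libraries 3 and 4, against 32.2 and 8.08 CPM without, and the chemokine CCL24 220.4 and 558 CPM, against 16.1 and 29.3 CPM. Lysosomal genes were higher for 9 of 30 and lower for 0. Lower were PTGS2, at 19.6 and 89.2 CPM with either receptor and 249.5 and 1317 CPM without, the sterol-sensing receptor NR1H3 (-3.16), the tetraspanin CD9 (-3.15), CXCL12 (-5.03), AREG (-3.29) and the granulocyte genes S100A8 and S100A9. In library 3 CXCL12 was seen in 8 of 84 members (9.52%), against 7.93% of endocrine barcodes, and AREG in 7 of 84, so both rest on few cells there. The part of free RNA in them was not tested. CD74 was not called in this division, at 3277 and 11924 CPM with either receptor and 3003 and 9638 CPM without. S100A8 had 73.5 and 149 CPM with either receptor, against 692 and 672 CPM without, and droplets that also hold a granulocyte were not told apart.

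Some genes rested on few members. SPP1 (osteopontin) had the highest variance-to-mean ratio between cells, a median of 34.4 against 1.09 over 3152 genes, and was seen in 2 of 126, 3 of 59, 13 of 84 and 16 of 274 members. In library 3 the top 5 cells held 90.6% of its UMIs, so its log2 ratio of 6.36 with LYVE1 against without rests on few cells. CXCL9, an interferon-induced chemokine called in the CD209 or FOLR2 division, was seen in 2, 2, 3 and 2 members. The stromal genes MGP (33.8) and COL1A1 (32.8) came next, and 1 member of library 3 held 203 of the 222 MGP UMIs there. S100A4 (28.5), LOC102189356 (23.4) and CD74 (23.1) also ranked among the 10 highest, across many cells: S100A4 was seen in 52.4%, 30.5%, 48.8% and 43.4% of members and CD74 in 92.1%, 86.4%, 73.8% and 86.5%. CTLA4, a receptor known from T cells, was seen in 22, 2, 10 and 34 members, at 72.3, 21.4, 35.7 and 48.8 CPM, against 0.526, 0.0481, 0.102 and 1.31 CPM in other barcodes.

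Members of different libraries were alike over most genes that every library carried. Only the 4140 genes with at least 10 UMIs in members of each library entered, which leaves out genes absent from a library. Over them the log2 CPM of library pairs correlated at 0.88 to 0.90, and at 0.94 between libraries 1 and 4. In that pair 4.83% of these genes differed by 2-fold, against 10.4% to 12.97% for other pairs. The pairs share a tissue and a method, and depth differs. Widest apart among list genes were UBE2C, a cell division gene, at 6.95, 0, 163 and 78.6 CPM, THBS1 at 26.4, 0, 28.2 and 135 CPM, APOE, given above, and GPNMB, a gene of lysosomal stress, at 284, 17.9, 1.88 and 3.79 CPM. GPNMB was seen in 8, 1, 0 and 1 members at 3000 UMIs, and MARCO, a scavenger receptor at 6.95, 189, 80.7 and 2.84 CPM, in 3, 2, 6 and 1. The gaps of GPNMB and MARCO thus came from few cells.

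Other gaps were carried by many cells. SOCS3, a brake on cytokine signals, had 136, 826, 13.1 and 138 CPM in members and 149.8, 76.6, 52.8 and 192 CPM in others, and was seen in 50 of 59 members of library 2, against 3 of 84 in library 3. CR2, a receptor for C3d, had 449, 60.8, 28.2 and 167 CPM in members and 1.68, 1.52, 1.29 and 2.68 CPM in others, and was seen in 59 of 126 members of library 1 and 7 of 59 in library 2. CD74 was higher in libraries 1 and 4 than in libraries 2 and 3, both in members and in other barcodes. Since age and library cannot be told apart by label, none of these gaps is given to an age.

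**Figure D5:**
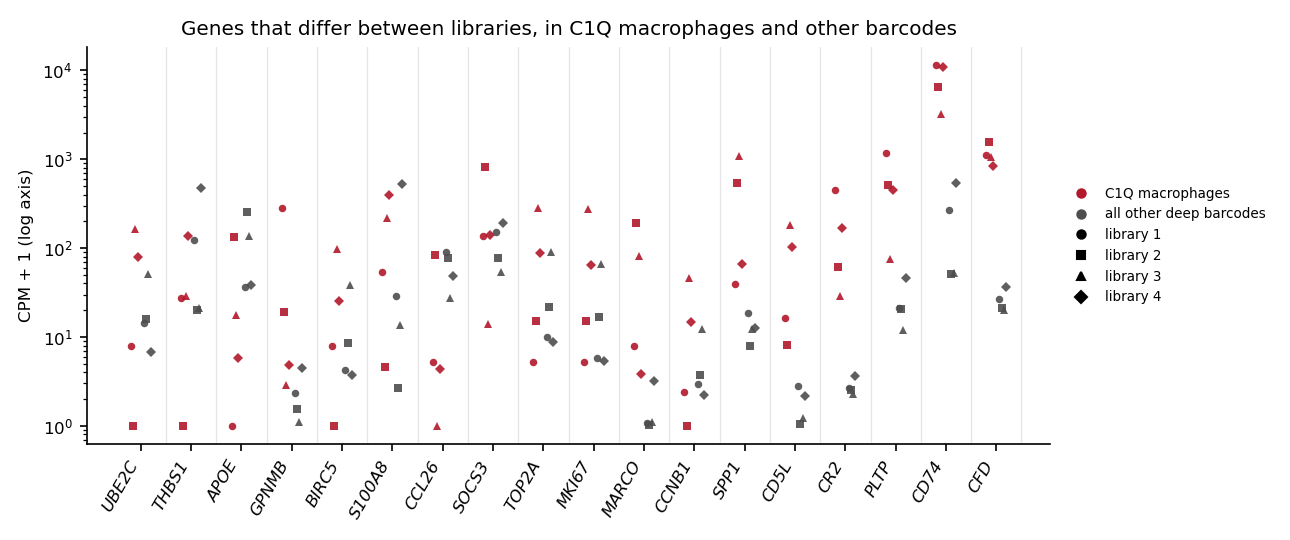
CPM + 1 on a log axis for the 12 list genes with the widest range between libraries and for SPP1, CD5L, CR2, PLTP, CD74 and CFD, in C1Q macrophages (red) and other deep barcodes (grey), 1 point per library. Cell division genes are highest in library 3 in both classes (MKI67 278 CPM in macrophages and 64.9 CPM in others), whereas CFD ranges over 841 to 1559 CPM in macrophages.

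Division was most frequent in library 3. At 3000 UMIs a cell, at least 2 of 24 cell cycle genes were seen in 16.7%, 16.9%, 45.2% and 15.3% of members (exact binomial intervals 10.6 to 24.3, 8.44 to 29.0, 34.3 to 56.5 and 11.3 to 20.1), against 12.6%, 13.7%, 28.9% and 11.6% of other deep barcodes. MKI67 or TOP2A was seen in 1 of 126, 2 of 59, 16 of 84 and 13 of 274 members. Without STMN1 and HMGB2, which resting cells also carry, the shares were 10.3%, 15.3%, 39.3% and 9.12% in members, against 4.39%, 5.95%, 20.6% and 3.37% in others. The share was thus highest in library 3 among other barcodes as well.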

How the data were processed

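The deposited file holds whole UMI counts per gene and barcode in 1 unfiltered matrix of 4 aggregated libraries; per the file headers it was written by Cell Ranger 5.0.1, while the submitters' processing notes name bcl2fastq 5.01, Cell Ranger 3.1.0 and Seurat 3.1.1. The genome build is not given in the sources used here. Of 27137 feature IDs 27103 matched the RefSeq table of goat assembly ARS1.2, used for names and gene order alone, and symbols that start with LOC stay unnamed.

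Counts were summed per class and library, scaled to CPM and compared as log2(CPM + 1), which understates the difference of low genes; no test was run, because no label ties a library to an animal, so the matrix counts as 1 sample, and because the classes were chosen on these same counts. Library totals were 43297855, 82817057, 65937591 and 55223412 UMIs, and members held 719426, 279754, 532557 and 2111669 of them. Shares used cells thinned to 3000 UMIs. Doublets were scored per library with Scrublet (scanpy 1.11.5, Python 3.11.15) and kept, with the top 5% left out as an alternative. Genes of the rule were left out of the comparisons. Of 462 genes in 17 lists, 406 matched by symbol. Members and lists were chosen with earlier results of these data known. Genes given here were drawn, per comparison, from the 25 called list genes whose median log2 ratio lay furthest from 0 and from the markers. Further sets were the 15 genes outside LOC symbols with the highest lowest-library ratio and the 12 list genes with the widest library range. The last sets were the 12 genes with the highest variance-to-mean ratio and each list's most abundant members. Not every gene of these sets is given in the text. The checks of named genes below cover the whole sets of called list genes and of highest lowest-library ratios. Others (C1R, C1S, CFI, HMOX1, CTLA4, S100A4, SRGN, GPX3, PEPD, LOC102189356 and genes given for contrast) were picked after their values were seen. The call rule was run on simulated class sums, with changes set only in genes of enough counts and with no single cells or free RNA. That run does not bear on changes in genes with few counts or on classes chosen on the same counts.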

Additional observations from a re-analysis of the deposited data

Results flagged for a closer look

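C1Q signal also lay outside the 543 members, in barcodes that the comparisons did not use. With at least 1000 and under 3000 UMIs, 40, 41, 16 and 131 further barcodes of libraries 1 to 4 met the other limits, with median C1Q counts of 41, 21, 17.5 and 27 UMIs. Deep barcodes with at least 5 C1Q UMIs and the leukocyte genes that broke a limit on INS, PPY, digestive enzymes or PDGFRA numbered 16, 9, 10 and 85. In library 4, 73 of the 85 broke the limit on INS, with a median of 11 C1Q UMIs and 19.2% of UMIs from INS. The median Scrublet score of all barcodes that broke a limit was 0.184, 0.0658, 0.273 and 0.0742 in libraries 1 to 4, against 0.0387, 0.0769, 0.0691 and 0.0274 in members, so library 2 differed in direction. Barcodes with 10 to 100 UMIs, mostly free RNA, gave 811, 187, 21 and 213 C1Q UMIs, or 232, 106, 61.5 and 244 CPM, where a count of 0 would allow up to 0.857, 1.70, 8.78 and 3.44 CPM. What these barcodes hold was not tested.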

How the results depend on the processing

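No paired analysis was possible because the library numbers on the barcodes match no sample label and the classes compared within a library were chosen on the same counts, so no test was made. Of 174 recomputed values 135 stayed within the counting interval or within 1.5 times, 39 moved, and no named gene changed sign. At 50 counts 13 of 31, 16 of 34, 16 of 31 and 14 of 30 named genes lost their call against other barcodes, against the granulocyte class, by CD209 or FOLR2 and by LYVE1. A minimum of 5000 UMIs gave 68, 17 and 52 members in libraries 1 to 3 and a share of 0.449% in library 2; a minimum of 1000 UMIs gave 100 members in library 2 and a share of 6.42% in library 4. At 5000 UMIs CD209 had 998, 525 and 686 CPM in libraries 1, 3 and 4, FOLR2 650.3 and 247 CPM in libraries 1 and 4, CD14 558 and 650.3 CPM in libraries 1 and 2, and CD68 515 CPM in library 2. Without the 5% highest doublet scores library 3 had 472 CPM of FOLR2 and 554 CPM of CD68. Cell cycle shares without thinning were 27.8%, 65.5% and 36.9% in libraries 1, 3 and 4, and with 3 genes 6.35%, 33.3% and 7.30%. Against other barcodes, a pseudocount of 10 CPM left 11 list genes lower, and a minimum of 50 counts 79 higher; leaving out 1 library gave 135 to 169 higher and 21 to 27 lower. Against the granulocyte class, 13 were lower at 50 counts and 33 with no minimum, and library 4 or library 1 alone gave 51 or 33 lower and 119 or 116 higher. With against without CD209 or FOLR2, 2 were lower at 50 counts and 23 with no minimum, and library 4 or library 3 alone gave 74 or 63 higher and 56 or 28 lower. With against without LYVE1 (chosen after seeing the data, like the comparison with barcodes that lack leukocyte genes), 6 were lower at 50 counts, 21 were higher and 21 lower with no minimum, and leaving out 1 library gave 12 to 21 higher and 11 to 21 lower, with 21 of each without library 2.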
